A study of Mus musculus with 6 samples.

Results

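The genes described here encode 9 transcription factors that carry interferon and cytokine signals to the nucleus. They comprise 5 interferon regulatory factors (Irf1, Irf2, Irf3, Irf7 and Irf9) and 4 signal transducers and activators of transcription (Stat2, Stat3, Stat5a and Stat6). They were chosen by symbol as members of these families, with earlier results of these data known. All 9 were found among the 14408 genes of the deposited table. Expression was compared between 3 L-proline libraries and 3 PBS libraries from male C57BL/6J mice, with left ventricle given as the tissue.

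The L-proline group received this amino acid at 300 mg/kg per day by intraperitoneal injection, and the control group received PBS, the vehicle, each for 4 to 8 weeks. Beforehand, heart failure with preserved ejection fraction had been induced in both groups from 8 weeks of age, by high-fat feeding and the nitric oxide synthase inhibitor L-NAME (0.5 g/L, for 8 to 12 weeks), so no library comes from a mouse without the disease model. The stated interest of the study lay in ferroptosis and PPARγ signalling. Separate animals per library are not stated, and the p-values below therefore cover library-to-library spread, which may be technical.

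Values are FPKM, that is, fragments scaled to gene length and to the library total. Totals recovered from the FPKM steps were 34990473 to 36778787 fragments with L-proline and 35925065 to 37498030 with PBS. Changes were tested with limma on log2(FPKM + 1) over the 10500 genes averaging 1 FPKM or more, and "rose" or "fell" means a Benjamini-Hochberg adjusted p under 0.05 over all of them. By that rule 7.5% of tested genes rose (788), 12.1% fell (1268) and 19.6% did either. Most defining genes of heart muscle were near 0: among 13 cardiomyocyte markers, 7 appeared in the table and only Tnnt2 and Nkx2-5 averaged 1 FPKM or more, while Ttn, Myh7, Myl2 and Tnni3 reached at most 0.212 FPKM in any library. Tnnt2, which encodes cardiac troponin T, fell, at 14.5 ± 1.51 with L-proline and 32.0 ± 0.777 with PBS (SD, n = 3 each). The 7 fibroblast markers in the table all averaged 1 FPKM or more, with a median of 145 FPKM. Of 9 pericyte and smooth muscle markers in the table, 6 averaged 1 FPKM or more. The 9 summed to 1051 to 1272 FPKM with L-proline and 1168 to 1299 with PBS. Among them, Acta2 averaged 826 FPKM with L-proline and 850 with PBS, while Myh11 reached at most 0.0459 in any library. The 4 endothelial markers in the table summed to 0.197 to 0.330 FPKM with L-proline and 0.216 to 0.348 with PBS. Apart from Tnnt2 and Nkx2-5, markers of heart muscle and of vessel lining were thus near 0 or not in the table in libraries labelled as left ventricle, and the cells that the RNA came from could not be settled from the values used here. In bulk RNA, fewer cells of a type and less RNA per cell cannot be told apart.

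STATs, IRF3 and IRF7 are activated by phosphorylation, which RNA sequencing does not measure. Type I interferon makes STAT2 and IRF9 assemble, with a further STAT protein, into the complex ISGF3, which binds the interferon-stimulated response element (ISRE) of antiviral genes. IRF3 is present before infection and starts interferon production once nucleic acid sensors are triggered, while IRF7 is itself interferon-induced and amplifies it. IRF1 activates and IRF2 often represses overlapping sets of genes. STAT3 answers cytokines of the interleukin 6 family and drives acute phase genes, STAT5A answers growth hormone, prolactin and related cytokines, and STAT6 answers interleukins 4 and 13. In heart muscle, STAT3 is known for protection under stress.

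RefSeq promoter windows, which run from 250 bases before to 50 bases after an annotated start, were available for all 9 genes, in 12 windows on build GRCm38.p6, whereas the submitters' processing notes name GRCm39. They are shown for the 4 genes that rose, and for Irf2, which held an ISRE and a GAS match and did not pass. Capitals mark matches, on either strand, to the ISRE (TTTCNNTTTC or GAAANNGAAA), to the STAT-binding GAS element (TTCNNNGAA) and to the form with a wider spacer that STAT6 is known to bind (TTCNNNNGAA). No matches overlap in these windows, which are written 5′ to 3′ on the strand of the gene.
Irf7, chr7:141266375-141266674, minus strand: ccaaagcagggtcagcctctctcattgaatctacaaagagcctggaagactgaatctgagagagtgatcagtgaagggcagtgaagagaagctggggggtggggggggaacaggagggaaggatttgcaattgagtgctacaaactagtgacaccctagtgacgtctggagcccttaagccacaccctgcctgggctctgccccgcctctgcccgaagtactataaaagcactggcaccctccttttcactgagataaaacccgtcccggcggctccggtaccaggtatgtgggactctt
Irf9, chr14:55603735-55604034, plus strand: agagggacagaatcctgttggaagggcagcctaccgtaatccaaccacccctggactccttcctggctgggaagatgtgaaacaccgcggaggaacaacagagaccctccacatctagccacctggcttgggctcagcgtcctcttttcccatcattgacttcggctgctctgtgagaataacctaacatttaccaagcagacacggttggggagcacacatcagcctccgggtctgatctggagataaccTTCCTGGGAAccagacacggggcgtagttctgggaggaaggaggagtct
Stat2, chr10:128270248-128270547, plus strand: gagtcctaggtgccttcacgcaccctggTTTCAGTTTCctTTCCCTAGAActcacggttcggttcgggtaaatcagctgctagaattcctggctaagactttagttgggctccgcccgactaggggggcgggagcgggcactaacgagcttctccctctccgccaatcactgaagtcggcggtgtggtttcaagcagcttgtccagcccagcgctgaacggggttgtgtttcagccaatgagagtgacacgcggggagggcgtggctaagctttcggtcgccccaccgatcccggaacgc
Irf1, chr11:53769764-53770063, plus strand: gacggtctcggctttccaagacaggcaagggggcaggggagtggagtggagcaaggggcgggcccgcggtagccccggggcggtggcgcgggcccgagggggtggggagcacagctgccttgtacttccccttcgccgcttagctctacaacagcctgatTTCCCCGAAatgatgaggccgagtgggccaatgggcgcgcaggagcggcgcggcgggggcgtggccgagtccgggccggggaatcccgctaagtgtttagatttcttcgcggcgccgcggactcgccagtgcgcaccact
Irf2, chr8:46739495-46739794, plus strand: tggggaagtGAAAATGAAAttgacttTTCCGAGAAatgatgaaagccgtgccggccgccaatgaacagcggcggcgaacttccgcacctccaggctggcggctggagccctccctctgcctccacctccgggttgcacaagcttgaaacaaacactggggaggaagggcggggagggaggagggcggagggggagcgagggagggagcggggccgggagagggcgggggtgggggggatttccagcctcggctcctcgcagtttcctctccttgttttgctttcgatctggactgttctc

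An ISRE match stood in the windows of Stat2 (TTTCAGTTTC, 222 bases before the start) and Irf2 (GAAAATGAAA, 241 bases before the start). Such a match was present for 3.99% of the 27025 genes with a window and for 3.71% of the 8352 tested genes with one. A GAS match stood in Irf1 (TTCCCCGAA, 90 bases before the start) and again in Irf2 (TTCCGAGAA, 224 bases before the start), against 9.55% of all genes and 7.97% of tested genes. The wider spacing was found in Stat2 (TTCCCTAGAA, 210 bases before the start) and right at the first annotated start of Irf9 (TTCCTGGGAA), against 8.01% of all genes and 6.35% of tested genes. The windows of Irf3, Irf7, Stat3, Stat5a and Stat6, and the second annotated windows of Irf1 and Irf9, held none of the 3 motifs. A match describes these letters only, and a window without one says nothing on sites elsewhere.

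**Figure D1:**
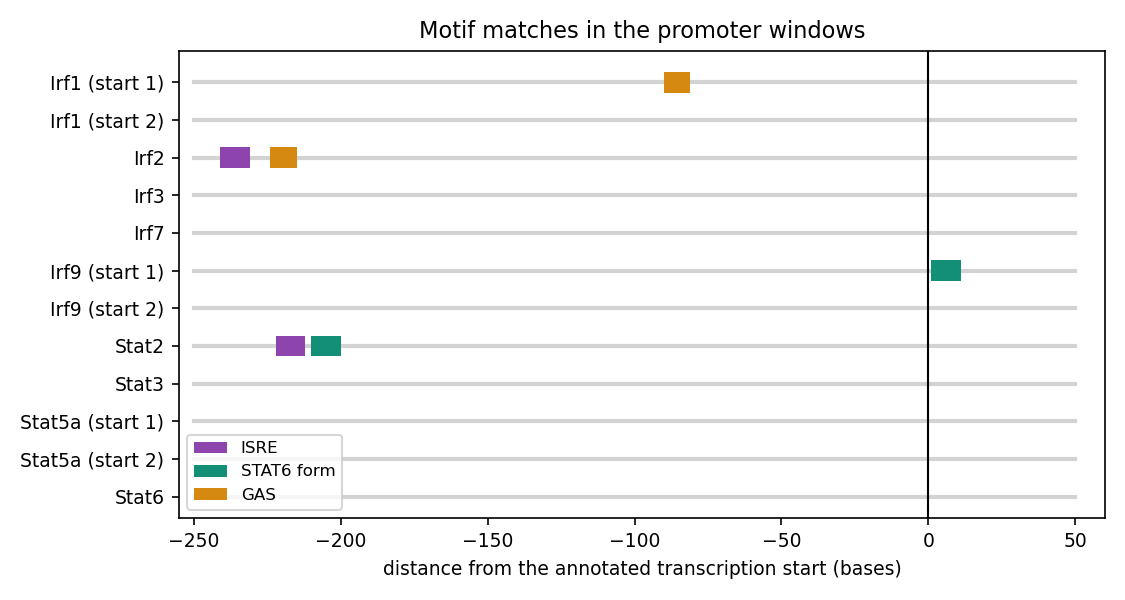
Position of motif matches (coloured blocks) in the 12 RefSeq promoter windows of the 9 genes, in bases from the annotated transcription start (vertical line at 0); grey lines are the windows. ISRE matches are in Stat2 and Irf2, GAS matches in Irf1 and Irf2, and matches with the wider STAT6 spacing in Stat2 and Irf9.

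Of the 8 factors that were tested, 4 rose with L-proline and 0 fell, where 7.5% of all tested genes rose and 12.1% fell. The 4 were Irf7, Irf9, Stat2 and Irf1, that is, 3 of the 5 interferon regulatory factors and 1 of the STATs. All 4 had every L-proline library above every PBS library, as did 16.0% of all tested genes, and 40.1% of tested genes had groups apart in either direction. Irf2, Irf3, Stat3 and Stat5a did not pass, and Stat6 lay under the filter on low values. The median log2 fold change of the 8 was 0.15, against -0.06 for all tested genes.

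**Figure D2:**
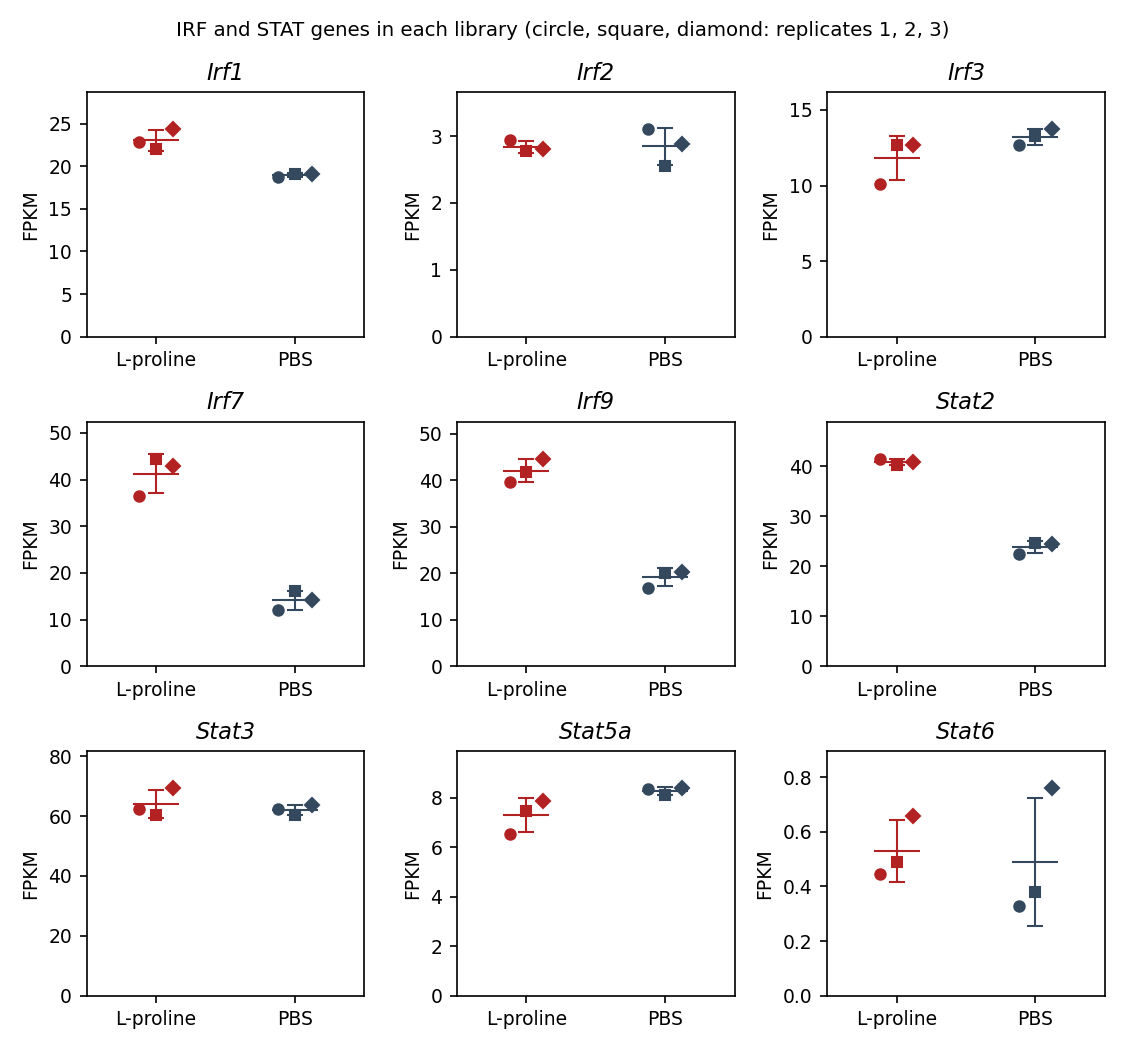
FPKM of each of the 9 genes in the 3 L-proline libraries and the 3 PBS libraries (points), with the mean and SD of each group. Irf7, Irf9, Stat2 and Irf1 have all L-proline points above all PBS points, while Irf2, Stat3 and Stat6 overlap. Irf3 and Stat5a have their L-proline points below, for Irf3 by a very small margin.

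Irf7, the interferon-induced amplifier, had the largest fold change of the 8 tested factors. Its FPKM was 36.5, 44.4 and 42.9 in L-proline libraries 1, 2 and 3, against 12.0, 16.1 and 14.3 in PBS libraries 1, 2 and 3. The lowest L-proline library was well above the highest PBS library. The means were 41.3 ± 4.20 with L-proline and 14.1 ± 2.08 with PBS (SD, n = 3 each), a ratio of 2.92. The log2 fold change was 1.49 ± 0.12 (SE; limma, adjusted p = 0.000353), which placed Irf7 at position 25 among the 788 genes that rose. The values rest on 870 to 3051 fragments per library.

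Irf9, the DNA-binding subunit of ISGF3, came next. It stood at 39.7, 41.9 and 44.6 FPKM in the L-proline libraries, against 16.9, 20.1 and 20.3 in the PBS libraries. The groups were far apart, and the spread inside each was small beside the gap. The means were 42.1 ± 2.46 with L-proline and 19.1 ± 1.94 with PBS (SD, n = 3 each; ratio 2.20), with a log2 fold change of 1.10 ± 0.09 (SE) and, by limma, an adjusted p = 0.000405. Fragments numbered 1699 to 4412 per library.

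Stat2, the partner of IRF9 in ISGF3, reached 41.5, 40.4 and 40.8 FPKM with L-proline, against 22.4, 24.6 and 24.4 with PBS. The L-proline libraries were almost level with one another, and all lay far above PBS. The means were 40.9 ± 0.577 with L-proline and 23.8 ± 1.20 with PBS (SD, n = 3 each; ratio 1.72). Its log2 fold change was 0.76 ± 0.07 (limma, adjusted p = 0.000481), backed by 3763 to 6819 fragments per library. Stat2 is also the risen gene with the ISRE match printed above.

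Irf1, an activator known to be induced through a GAS element in its promoter, changed least among the 4. It measured 22.8, 22.0 and 24.3 FPKM in the L-proline libraries, against 18.7, 19.1 and 19.1 in the PBS libraries. The groups did not overlap, but the gap between them was about as wide as the spread among the L-proline libraries. The means were 23.0 ± 1.19 with L-proline and 19.0 ± 0.244 with PBS (SD, n = 3 each; ratio 1.21), and the log2 fold change was 0.27 ± 0.07 (limma, adjusted p = 0.0340). The call was lost with columns scaled to equal sums (limma, adjusted p = 0.0559), and without L-proline 3 (0.0723), PBS 1 (0.130), PBS 2 (0.0866) or PBS 3 (0.129).

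Irf3, the latent factor that starts interferon production, was 10.1, 12.7 and 12.6 FPKM with L-proline and 12.7, 13.3 and 13.7 with PBS. The L-proline libraries lay below the PBS libraries, an order that 24.0% of tested genes had. L-proline 2 (12.653) and PBS 1 (12.66) were almost level, however, and L-proline 1 was the lowest by far. The means were 11.8 ± 1.47 with L-proline and 13.2 ± 0.530 with PBS (SD, n = 3 each), and the log2 fold change of -0.16 ± 0.10 did not pass (limma, adjusted p = 0.297). Irf2, the common antagonist of IRF1, was 2.94, 2.78 and 2.81 FPKM with L-proline and 3.10, 2.56 and 2.89 with PBS, so that the groups overlapped. Its log2 fold change was -0.00060 ± 0.09 (limma, adjusted p = 0.997), and the sign turned with the pseudocount and the scaling.

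Stat3 was the most abundant of the 9 in both groups and did not pass. It measured 62.5, 60.5 and 69.3 FPKM in the L-proline libraries and 62.2, 60.3 and 63.7 in the PBS libraries, where all but L-proline 3 lay within the PBS range or close to it. The means were 64.1 ± 4.61 with L-proline and 62.1 ± 1.73 with PBS (SD, n = 3 each), and the log2 fold change came to 0.04 ± 0.07 (limma, adjusted p = 0.704). Stat3 had 9733 to 11722 fragments per library, the most of the 9.

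Stat5a, which relays growth hormone and prolactin signals, was 6.53, 7.46 and 7.87 FPKM with L-proline and 8.36, 8.09 and 8.37 with PBS. All L-proline libraries lay below all PBS libraries, an order that 24.0% of tested genes had, and the change did not pass. The means were 7.29 ± 0.690 with L-proline and 8.28 ± 0.161 with PBS (SD, n = 3 each), and the log2 fold change was -0.17 ± 0.09 (limma, adjusted p = 0.213). Stat6, the mediator of interleukins 4 and 13, was the lowest, at 0.444, 0.488 and 0.657 FPKM with L-proline and 0.329, 0.380 and 0.759 with PBS. Library 3 was the highest of each group, and the groups overlapped. Only 62, 65 and 92 fragments with L-proline and 47, 52 and 106 with PBS stood behind it. The exact Poisson 95% interval for PBS 3, which covers counting error only, was 0.621 to 0.918 FPKM and lay above that for PBS 1, 0.242 to 0.438. With no filter, Stat6 had a difference on the log2 scale of 0.05 (limma, adjusted p = 0.813).

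**Figure D3:**
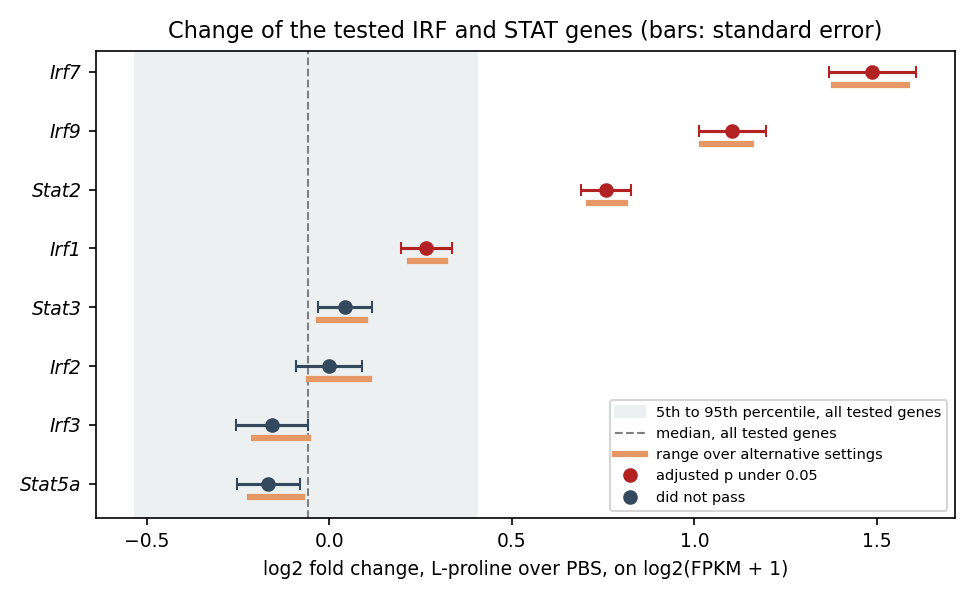
Log2 fold change (L-proline over PBS, on log2(FPKM + 1)) of the 8 tested genes with its standard error; orange bars give the range over the alternative settings, the grey band the 5th to 95th percentile of all tested genes and the dashed line their median of -0.06. Irf7 (1.49), Irf9 (1.10) and Stat2 (0.76) lie right of the band, and Irf1 (0.27) lies inside it.

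FPKM is scaled to gene length, so the 9 genes can be ranked within each group. The ranks, and the ratios below, depend on the lengths used. Irf2 had the longest recovered length of the 9, at 12519 bases. It had 1150 to 1456 fragments per library, against 940 to 1275 for Irf3, so its lower rank rests on that length. With L-proline the order of mean FPKM was Stat3, Irf9, Irf7, Stat2, Irf1, Irf3, Stat5a, Irf2 and Stat6. The ranges of Irf9, Irf7 and Stat2 overlapped there, and all other neighbours in the order were apart. With PBS the order was Stat3, Stat2, Irf9, Irf1, Irf7, Irf3, Stat5a, Irf2 and Stat6. There Irf9 overlapped with Irf1 and Irf7 with Irf3, while the other neighbours were apart. The summed FPKM of the 9 was 223, 232 and 246 in the L-proline libraries, against 157, 164 and 168 in the PBS libraries.

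Ratios between factors within a library do not depend on how the library was scaled. Irf7 had 3.61, 3.51 and 3.39 times the FPKM of Irf3 in the L-proline libraries, against 0.948, 1.22 and 1.04 times in the PBS libraries. The interferon-induced factor was thus above the latent factor with L-proline and about level with it with PBS. The ratio of Stat2 to Irf9 was 1.04, 0.963 and 0.914 with L-proline and 1.33, 1.23 and 1.20 with PBS. The ratio of the activator Irf1 to the repressor Irf2 was 7.75, 7.92 and 8.67 with L-proline and 6.03, 7.47 and 6.62 with PBS. That of Stat2 to Stat3 was 0.664, 0.667 and 0.589 with L-proline and 0.360, 0.409 and 0.383 with PBS. In all 4 ratios the groups did not overlap. Each ratio held a factor whose own groups were already apart, so this is not separate evidence. Each gave p = 0.1 in a two-sided exact permutation test on log2 ratios (0.1 after adjustment over the 4). That is the smallest p that 3 libraries against 3 allow, so the test could not pass 0.05 and decides nothing here.

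Known target genes of ISGF3 were largely higher with L-proline. Of 29 tested ISGF3 and ISRE target genes, 26 rose (89.7%) and 0 fell, and the median log2 fold change was 1.12, against 7.5% risen and a median of -0.06 over all tested genes. The smallest unadjusted p belonged to Ifit3 (log2 fold change 2.84 ± 0.09), Usp18 (2.21 ± 0.09), Dhx58 (1.78 ± 0.08) and Ifit1 (2.40 ± 0.12). Ifit1 and Ifit3 encode antiviral effectors, Usp18 an enzyme that removes ISG15, and Dhx58 a relative of the RNA sensor RIG-I. The 3 that did not pass were Ifit2, at 19.1 ± 5.85 with L-proline and 12.2 ± 1.21 with PBS, the kinase gene Eif2ak2, at 35.6 ± 11.4 and 20.7 ± 3.66 in the same order, and the nucleotide hydrolase gene Samhd1, at 28.5 ± 2.49 and 27.0 ± 1.42 (FPKM, SD, n = 3 each). An ISRE match stood in the promoter windows of 9 of the 21 tested genes of this list that had a window, or 42.9%. A GAS match stood in 7 of these 21, or 33.3%, and the wider spacing in 3, or 14.3%. Of 18 tested STAT3 target genes with a window, 2 held a GAS match and 2 an ISRE match, or 11.1% each, and 3 the wider spacing, or 16.7%. Over all tested genes with a window the shares were 3.71% for the ISRE, 7.97% for GAS and 6.35% for the wider spacing.

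The list of IRF1 and interferon gamma target genes held 18 tested members. Of these, 16 rose (88.9%, against 7.5% of all tested genes) and 0 fell (against 12.1%). The median log2 fold change was 0.77, against -0.06 over all tested genes. Which factor acted on the genes of this list was not tested. The GTPase gene Igtp stood at 39.1 ± 2.05 with L-proline and 12.2 ± 1.43 with PBS, and Gbp3, another GTPase gene, at 21.3 ± 4.23 and 5.56 ± 0.837 in the same order (FPKM, SD, n = 3 each). The chemokine gene Cxcl10 was 6.76 ± 0.686 with L-proline and 1.84 ± 0.390 with PBS, and the GTPase gene Gbp2 17.0 ± 0.973 and 7.59 ± 0.524. Their log2 fold changes ran from 1.07 for Gbp2 to 1.75 for Gbp3. Gbp5 and the proteasome activator gene Psme1 did not pass, with log2 fold changes of 0.24 and 0.30 (limma, adjusted p = 0.154 and adjusted p = 0.0539).

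Known STAT3 target genes were often lower with L-proline, while Stat3 itself did not pass. Of 24 tested, 12 fell (50%, against 12.1% of all tested genes) and 0 rose, and the median log2 fold change was -0.36. Those with the smallest unadjusted p were Ier3, an early response gene, Lcn2 and Hp, acute phase genes whose products bind siderophores and haemoglobin, and Timp1, an inhibitor of metalloproteinases. Ier3 was 68.1 ± 4.99 with L-proline and 126 ± 3.16 with PBS, or -0.89 ± 0.07 as a log2 fold change (limma, adjusted p = 0.000381). Timp1 was 268 ± 27.1 with L-proline and 487 ± 32.5 with PBS, or -0.86 ± 0.09 as a log2 fold change (limma, adjusted p = 0.000775). Lcn2 and Hp had log2 fold changes of -1.71 ± 0.16 and -1.46 ± 0.14. The kinase gene Pim1, the feedback inhibitor gene Socs3, Myc and the cyclin gene Ccnd1 were among the others that fell, named here after their values were seen; Myc passed under 11 and Ccnd1 under 13 of 16 alternative settings. The acute phase gene Saa3 was 1309 ± 335 with L-proline and 1049 ± 166 with PBS and did not pass (limma, adjusted p = 0.280). Without PBS 3, 8 of the list fell. Several of these genes also answer other factors, such as NF-kB.

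**Figure D4:**
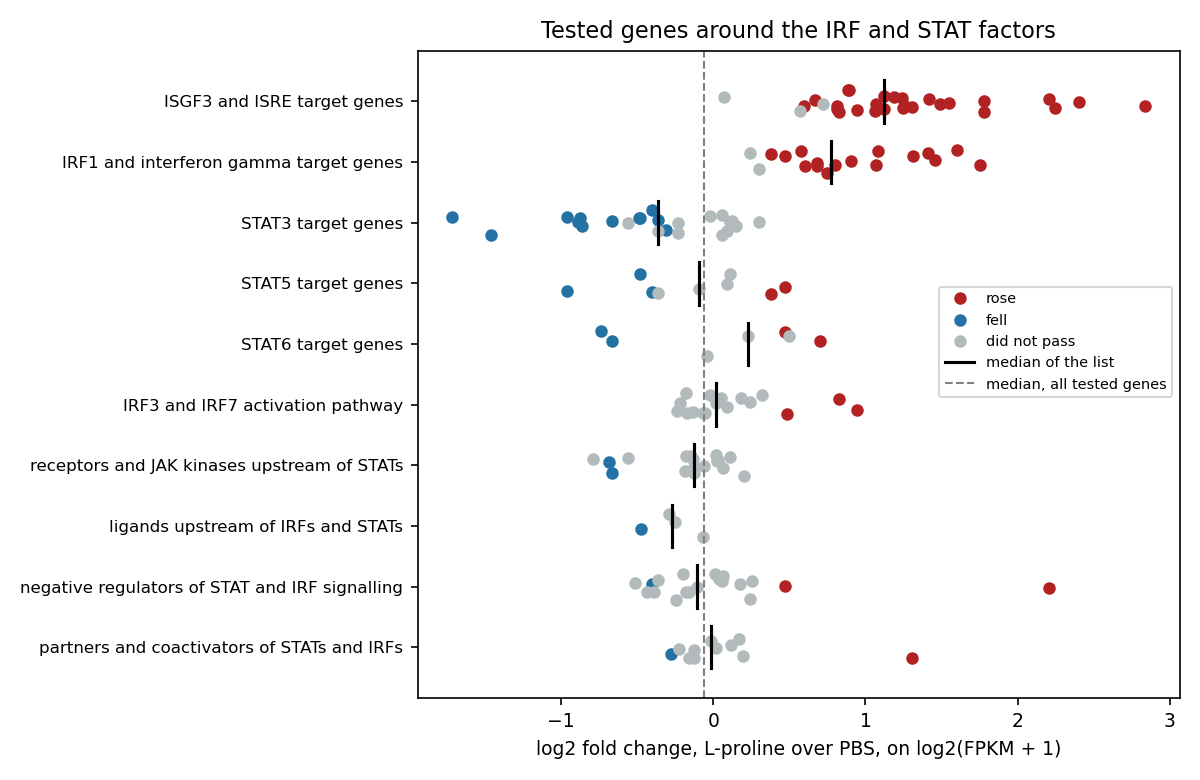
Log2 fold change (L-proline over PBS) of every tested gene in 10 lists around the IRF and STAT factors, 1 point a gene; red points rose, blue points fell, grey points did not pass, black bars are list medians and the dashed line is the median of all tested genes. The ISGF3 and IRF1 lists lie to the right (medians 1.12 and 0.77) and the STAT3 list to the left (median -0.36).

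STAT5 and STAT6 target genes were split. Of 9 tested STAT5 targets, 2 rose and 3 fell, and of 7 tested STAT6 targets, 2 rose and 2 fell, where 7.5% of all tested genes rose and 12.1% fell. Of the STAT5 targets, 1 rose without L-proline 2, PBS 1, PBS 2 or PBS 3, and 1 fell without PBS 2 or PBS 3. Socs1, a feedback inhibitor gene on both lists, rose, at 11.9 ± 0.573 with L-proline and 8.31 ± 0.509 with PBS (FPKM; limma, adjusted p = 0.00668). The cyclin gene Ccnd2, on the STAT5 list, was 32.0 ± 3.29 with L-proline and 24.3 ± 1.24 with PBS (limma, adjusted p = 0.0237), a call lost without L-proline 2 (0.0725), PBS 1 (0.0993), PBS 2 (0.0590) or PBS 3 (0.0694). Pim1, Socs3 and Ccnd1, which the STAT5 list shares with the STAT3 list, were its 3 that fell. The STAT5 target Cish, named after its values were seen, was under the filter, with 55, 72 and 61 fragments in the L-proline libraries and 122, 91 and 147 in the PBS libraries. On the STAT6 list, the adhesion gene Vcam1 was 44.9 ± 1.50 with L-proline and 75.7 ± 4.19 with PBS (limma, adjusted p = 0.000528), and the receptor gene Il4ra was 25.4 ± 2.17 with L-proline and 40.8 ± 1.56 with PBS (limma, adjusted p = 0.00163). The transcription factor gene Klf4 rose, at 12.5 ± 1.61 with L-proline and 7.30 ± 1.00 with PBS.

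Upstream of IRF3 and IRF7, 3 of 17 tested genes rose (17.6%, against 7.5% of all tested genes) and 0 fell (against 12.1%). These were the RNA sensor gene Rigi (31.2 ± 1.65 with L-proline and 17.2 ± 1.83 with PBS), the RNA sensor gene Ifih1 (7.69 ± 2.01 and 3.44 ± 0.379 in the same order) and the adaptor gene Myd88 (14.0 ± 1.82 and 9.71 ± 0.595; FPKM, SD, n = 3 each). Rigi and Ifih1 are also on the ISGF3 list. Ikbke, whose product phosphorylates IRF3 and IRF7, was 6.86 ± 0.163 with L-proline and 8.29 ± 0.204 with PBS and did not pass (limma, adjusted p = 0.0542), but passed with equal sums (0.0336), sample weights (0.0127) and voom (0.0460). The number upstream that fell ran from 0 to 3 over the alternative settings. Myd88 did not pass without PBS 1 (limma, adjusted p = 0.0668) or PBS 3 (limma, adjusted p = 0.0694).

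Of 17 tested receptor and JAK kinase genes, 0 rose and 2 fell (11.8%, against 12.1% of all tested genes). The number that fell was 5 without L-proline 1, 4 without PBS 2 and up to 7 over the alternative settings. Those that fell as designed were Il4ra and the erythropoietin receptor gene Epor, the second at 1.77 ± 0.228 with L-proline and 3.46 ± 0.541 with PBS. Jak2, whose product serves many cytokine receptors, was 13.1, 9.42 and 6.08 FPKM in the L-proline libraries, against 19.4, 13.3 and 17.6 in the PBS libraries, groups that came close without overlapping (limma, adjusted p = 0.0532, and 0.00140 to 0.166 over the alternative settings, of which 6 of 16 passed, including without L-proline 1 at 0.00765 and PBS 2 at 0.0490). Osmr, the oncostatin M receptor gene, was 33.4 ± 8.91 with L-proline and 49.4 ± 10.4 with PBS and did not pass (limma, adjusted p = 0.0905), but passed under 4 of 16 alternative settings, among them without L-proline 1 (0.0120) and PBS 2 (0.0394).

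Of 20 ligand genes, 7 were in the table and 4 were tested. Il6, whose product signals to STAT3, was 59.8, 46.8 and 43.4 FPKM in the L-proline libraries and 73.7, 58.8 and 76.7 in the PBS libraries, and the groups overlapped. It fell by the test (log2 fold change -0.48 ± 0.14; limma, adjusted p = 0.0486), but passed under only 7 of 16 alternative settings; it did not pass without L-proline 2 (0.134), L-proline 3 (0.124), PBS 1 (0.155) or PBS 3 (0.174). Clcf1, a ligand of the interleukin 6 family, was 11.6 ± 1.16 with L-proline and 14.3 ± 0.260 with PBS and did not pass (limma, adjusted p = 0.0524), but passed under 4 of 16 alternative settings, among them without L-proline 2 (0.0373). The interferon genes lay at the edge of detection. Ifnb1, the gene of interferon beta, had 6, 2 and 7 fragments in the L-proline libraries and 0 in each PBS library, and Ifng, the gene of interferon gamma, had 0 in each L-proline library and 1, 7 and 7 in the PBS libraries. A count of 0 in a single library has a 95% upper bound of 3 fragments, counting error only. No fold change is read from numbers this low.

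Among 19 tested negative regulators, 2 rose (10.5%, against 7.5% of all tested genes) and 1 fell (5.26%, against 12.1%). The number that fell ran from 0 (without PBS 3) to 6 over the alternative settings, with 5 without L-proline 1. Usp18 and Socs1 were those that rose, and Socs3 fell, at 39.8 ± 3.35 with L-proline and 52.8 ± 3.50 with PBS (limma, adjusted p = 0.0157). Its call was lost without PBS 2 (limma, adjusted p = 0.0536) or PBS 3 (limma, adjusted p = 0.0593). Of 11 tested partners and coactivators, 1 rose (9.09%, against 7.5% of all tested genes) and 1 fell (9.09%, against 12.1%). Ifi35, an interferon-induced gene that is also on the ISGF3 list, rose, at 86.3 ± 6.48 with L-proline and 34.4 ± 4.67 with PBS. The deacetylase gene Hdac3 fell, at 34.4 ± 2.73 with L-proline and 41.8 ± 0.750 with PBS (limma, adjusted p = 0.0409). It did not pass with median-of-ratios scaling (limma, adjusted p = 0.0932) or without L-proline 1 (0.0560), L-proline 2 (0.0606), PBS 1 (0.143), PBS 2 (0.101) or PBS 3 (0.127).

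The genes whose profiles over the 6 libraries lay closest to each factor were found by the root mean square difference of centred log2(FPKM + 1) values. For Irf7 these were Oas1g (0.0893) and Igtp (0.0966), for Irf9 Ogfr (0.0471) and Apol9a (0.0598), and for Stat2 Pop1 (0.0349) and Nars (0.0364). Pop1 was low, at 2.78 FPKM with L-proline and 1.26 with PBS on average, where adding 1 shrinks fold changes. Its log2 fold change ran from 0.71 to 1.14 over the alternative settings, against 0.71 to 0.81 for Stat2, so its closeness to Stat2 depends on the scale used. For Irf1 they were Eif1 (0.0213) and Slc6a6 (0.0237), for Irf2 Dnajc18 (0.0113) and Stradb (0.0216), and for Irf3 Wbp1l (0.0319) and Sod3 (0.0324). Those closest to Stat3 were Arid3a (0.0218) and St3gal5 (0.0231), and those closest to Stat5a were Rnf123 (0.0169) and Zdhhc8 (0.0213).

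IRF7 is abundant in plasmacytoid dendritic cells and IRF factors act in many immune cells, so markers of such cells are set beside the changes. Of 8 plasmacytoid markers 4 were in the table, and the defining gene Siglech was not among them. Their summed level was 368 to 417 FPKM with L-proline and 152 to 206 with PBS, nearly all of it Bst2, which the ISGF3 list also holds. Of 10 macrophage markers 5 were in the table, Adgre1 and Ptprc not among them, with sums of 21.8 to 25.4 FPKM with L-proline and 19.7 to 22.2 with PBS. Cd68 rose, at 5.19 ± 0.297 with L-proline and 3.17 ± 0.536 with PBS (limma, adjusted p = 0.0101), while Cd14, at 16.5 ± 1.22 with L-proline and 15.6 ± 1.58 with PBS (limma, adjusted p = 0.583), and Lyz2, at 1.88 ± 0.524 with L-proline and 1.69 ± 0.508 with PBS (limma, adjusted p = 0.723), did not pass. Csf1r stayed at or below 0.274 FPKM. Of 9 T and NK cell markers 2 were in the table, Cd8a at no more than 0.0682 FPKM and the chemokine gene Ccl5, which rose, at 82.4 ± 13.5 with L-proline and 31.8 ± 0.338 with PBS. Fibroblast markers summed to 4069 to 4476 FPKM with L-proline and 3367 to 3466 with PBS, where Col1a1, Col1a2 and Col3a1 rose, Pdgfra fell and Dcn, Postn and Fn1 did not pass. Col1a1 lost its call without PBS 1 (limma, adjusted p = 0.0896) or PBS 3 (0.0732). Col1a2 lost its call without PBS 1 (limma, adjusted p = 0.0538), and Pdgfra after quantile normalization (limma, adjusted p = 0.0756) and without L-proline 2 (0.0583), PBS 1 (0.0938) or PBS 3 (0.115). The part of these cell types in the changes of the factors was not tested.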

How the data were processed

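RNA from left ventricle, per the labels, was sequenced as 6 polyA libraries. The authors deposited 1 table of FPKM values, per the file headers, with 1 column a library; HISAT2, HTSeq 0.13.5 and GRCm39 are named, without their roles, per the submitters' processing notes. FPKM depends on the gene model and on other abundant genes. Titles gave group and replicate number.

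Whole fragments were recovered from the FPKM steps, within 0.01, for 14407 of 14408 genes, with totals solved from 13 mitochondrially encoded genes. Every pair of same-group libraries differed beyond counting noise (chi-square over degrees of freedom 7.81 to 77.9).

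Genes averaging 1 FPKM or more were fitted in limma 3.58.1 (R 4.3.3; two-sided tests, variances moderated along a trend in the mean) as log2(FPKM + 1) and adjusted over all 10500; such fold changes understate the change of low genes. The fit was tested on simulated counts that varied independently between genes, so that test does not cover shifts shared by the genes of a library. Ratios were compared by exact permutation (scipy 1.17.1). Members and lists were chosen with earlier results of these data known, so their counts are not independent evidence. Named genes are all members, up to 4 genes with the smallest unadjusted p in each list, the 2 genes closest in profile to each member, and markers; others named are so marked, or are those that did not pass in a list, shared list members and interferons. Some other genes of the same families are not reported here. Alternatives changed the pseudocount, filter, scaling, weights, variance model, test (voom), replicate block and libraries included.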

Additional observations from a re-analysis of the deposited data

How the results depend on the processing

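Irf7, Irf9 and Stat2 passed under all 16 alternatives, with log2 fold changes of 1.38 to 1.58, 1.02 to 1.16 and 0.71 to 0.81. Irf1 passed under 11 of 16, with log2 fold changes of 0.22 to 0.32 and adjusted p from 0.0110 to 0.130. Irf3 and Stat5a stayed below 0 and did not pass under any of the 16. Irf2 changed sign, to 0.00013 with a pseudocount of 0.1, 0.040 with median-of-ratios scaling, 0.11 after quantile normalization and ran from -0.056 to 0.047 on leaving out single libraries. Stat3 changed sign to -0.0029 with equal sums, -0.027 with sample weights and -0.013 without L-proline 3, and ran from -0.013 to 0.083 on leaving out single libraries. Other genes near 0 that changed sign without a call were Stradb (0.021 with median-of-ratios scaling, 0.033 after quantile normalization, -0.091 to 0.0098 on leaving out libraries), Dnajc18 (-0.025 with equal sums, -0.025 with sample weights, -0.039 to 0.064 on leaving out libraries), St3gal5 (-0.0098, -0.032 and -0.020 to 0.075, in the same order), Arid3a (-0.0041 to 0.092 on leaving out libraries), Lif (0.023 after quantile normalization) and Ctf1 (0.095 with sample weights). Over all genes, sample weights gave 1798 higher and 2873 lower. Leaving out 1 library gave 366 to 965 higher and 508 to 1805 lower, with 366 and 508 without PBS 3, 392 and 584 without PBS 1 and 843 lower without PBS 2. Of all calls, 38.3% were higher as designed, 50.9% with median-of-ratios scaling, 51.5% after quantile normalization and 28.5% with equal sums. ISGF3 targets that rose numbered 24 to 28, and STAT3 targets that fell 8 to 14, with 0 in the other direction under all 16. Over the lists, 276 of 320 counts stayed within 1.5 times and 44 did not. The 276 include counts that were 0 as designed and stayed 0, for example of STAT3 targets and of receptor genes that rose. The cause of these shifts was not tested. Whether replicate numbers pair the libraries could not be settled. The deviations of same-numbered libraries correlated at 0.651, 0.416 and -0.348, and not every library correlated best with its own number. Deviations from the mean of 3 libraries are tied to each other, so these values cannot exclude pairing. With the replicate block 908 genes were higher and 1475 lower, and the number of factors that rose was again 4. Depth limits Ifnb1 and Ifng. Stat6 also has few fragments, but its PBS 1 and PBS 3 differed beyond counting error, so depth is not its only limit.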

Other observations

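As a share of the summed FPKM of the 9 factors, Stat3 made up 27.4% ± 1.21 with L-proline and 38.1% ± 1.55 with PBS (SD, n = 3 each). Irf7 made up 17.6% ± 1.38 with L-proline and 8.66% ± 1.09 with PBS. Irf9 made up 18.0% ± 0.174 with L-proline and 11.7% ± 0.817 with PBS, and Stat2 17.5% ± 1.02 with L-proline and 14.6% ± 0.333 with PBS. Shares of 1 sum are tied to each other, so a lower share of Stat3 does not mean a lower level.

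With no filter on low values, Ifnb1 was called higher with L-proline (limma, adjusted p = 0.0366) and Ifng was not called (limma, adjusted p = 0.0932), on the few fragments given above.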
